A study of Mus musculus with 4 samples.

Results

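The Hox cluster genes were followed in whole mandibles of mouse embryos, in 2 control arrays and 2 arrays of Bmp4 overexpression. Members were all probes whose current gene symbol is Hoxa, Hoxb, Hoxc or Hoxd followed by a number from 1 to 13. This gave 46 probes for 37 genes, of 29922 probes and 16637 named genes in all, and of 39 Hox protein genes in the RefSeq gene table. The remaining family members were not analysed here. Where a gene had several probes, the one with the highest mean over the 4 arrays stood for the gene, and the others served as a check. Control mandibles were wild-type and overexpression mandibles carried conditional Bmp4 overexpression, both on a C57BL/6 background and dissected at stage E11.5. Bmp4, a secreted bone morphogenetic protein (BMP), had been induced with doxycycline for 24 hours. The driver of the transgene, the use of doxycycline in controls and any pooling of embryos are not stated in the labels used here, so effects of drug or genotype cannot be told apart from those of Bmp4. Nothing states that arrays of a group came from separate embryos, and the p-values therefore reflect the spread among these arrays alone, which could be technical.

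Hox genes encode homeodomain transcription factors that give cells their position along the head-to-tail axis. They lie in 4 clusters, where low-numbered (anterior) genes are switched on earlier and further forward than high-numbered (posterior) genes. The neural crest mesenchyme of the first pharyngeal arch, which builds the mandible, is known to form without Hox expression, while Hoxa2 patterns the second arch behind it and group 3 genes the arches further back. Hox proteins bind DNA together with the TALE homeodomain proteins of the Meis, Pbx and Pknox families. Retinoic acid is a classical inducer of anterior Hox genes, and Polycomb complexes keep unused clusters silent.

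Each array gave a log2 intensity per probe, on a scale that the authors had made identical between arrays. The lower quartile of all probes was 6.79, the median 7.95 and the maximum 16. Arrays of 1 group correlated across probes with r = 0.993 in both groups, and arrays of different groups with r between 0.974 and 0.981. Bmp4 checked the labels: it read 11.96 and 12.07 in controls and 15.27 and 15.31 in overexpression samples, a difference of 3.28 ± 0.11 (log2, SE; limma, adjusted p = 0.00137). Of 19 measured genes of the mandible, none was under the lower quartile in both groups. The transcription factor gene Msx1 read 13.94 and 13.96 in controls, and Twist1 read 14.40 and 14.38. The mandible genes were not stable between groups: 5 rose, 6 fell and 8 did not pass (limma, adjusted p under 0.05). The share called was 57.9%, against 16.9% of all named genes, and Msx1 and Twist1 had differences of 1.01 and -1.19. Of these 19 genes, 18 had a group mean at or above the median of all probes. Among named genes whose probe mean reached that median, 22.1% were called in either direction.

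Most Hox probes were dim in both groups. The group means lay below the median of all probes in both groups for 26 of 37 Hox genes (70.3%), against 35.4% of all named genes. For 9 Hox genes (24.3%) both group means were under the lower quartile, against 15% of all named genes, and Hoxa10, Hoxa11, Hoxa13 and Hoxc10 were among these. The brightness of a probe also depends on its sequence, so the levels of different genes are not ranked here. A value near the bottom of the scale cannot separate a low transcript from none, because detection calls were not used. The median over the 37 genes was 7.24 and 7.33 on the control arrays and 7.37 and 7.34 on the overexpression arrays.

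Bmp4 overexpression went with mostly small changes of Hox genes in both directions. With limma and an adjusted p of 0.05 over all probes, 4 Hox genes rose (Hoxb6, Hoxb7, Hoxd3 and Hoxd12) and 6 fell (Hoxa3, Hoxc4, Hoxc8, Hoxd1, Hoxd4 and Hoxd8). The other 27 did not pass. The share called was 27% of Hox genes against 16.9% of all named genes, with 10.8% against 7.39% higher and 16.2% against 9.54% lower. The median log2 difference of the Hox genes was 0.075 and that of all named genes 0. With uncalled values included, 23 Hox differences were positive and 14 negative (62.2% positive, against 49.6% of all named genes). A shift of the whole family was not tested. Among genes whose probe mean lay below the probe median, 5 of 27 Hox genes (18.5%) were called against 8.49% of all named genes there, and among brighter genes 5 of 10 (50%) against 22.1%. Hoxd8 alone also met the study's own rule of at least 2-fold at an unadjusted p of 0.05, which 3.32% of all named genes met. Values of the 2 groups did not overlap for 24 of 37 Hox genes (64.9%), close to the 63.3% of all named genes. The calls rest on all 4 arrays. Leaving out either control array (replicate 1 or 2) or either overexpression array (replicate 1 or 2) left 1 residual degree of freedom, and limma then called 0 Hox genes and 0 probes of any kind. Between 10 and 14 Hox genes, and between 6020 and 7947 of all probes, then had an unadjusted p under 0.05. All 10 called genes kept their sign in each of these 4 fits. Their groups did not overlap, so this was fixed in advance and lends the calls no weight.

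**Figure D1:**
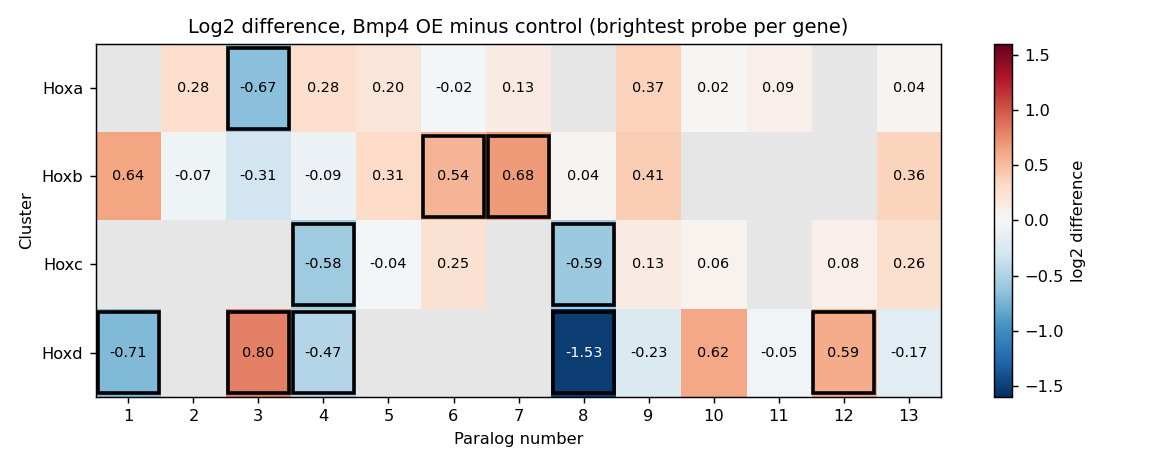
Log2 difference between Bmp4 overexpression and control for each measured Hox gene, with clusters as rows and paralog numbers as columns. Red is higher, blue is lower, grey marks positions without a gene or without a probe, and black frames mark the 10 genes past the adjusted threshold, of which 5 lie in the Hoxd cluster.

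**Figure D2:**
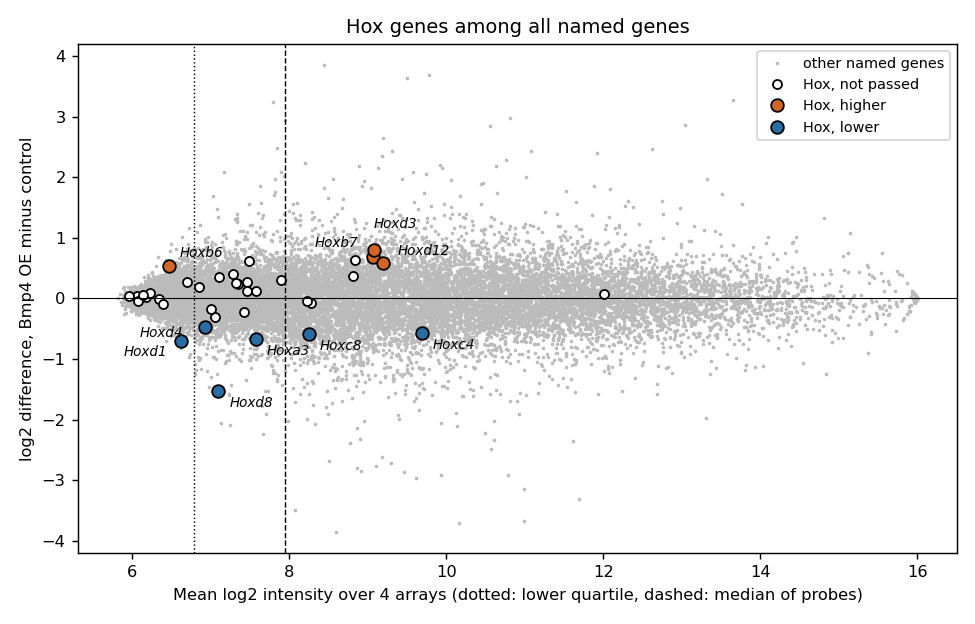
Log2 difference against mean log2 intensity for all 16637 named genes (grey) and the 37 Hox genes (circles, filled where the gene passed the adjusted threshold). Most Hox genes lie left of the dashed median of 7.95, and Hoxd8 has the largest difference among them, at -1.53.

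The Hoxd cluster, on chromosome 2, held 5 of the 10 calls among its 9 measured genes. The share called was 55.6%, against 16.9% of all named genes, and the difference between clusters was not tested. Of these, 2 rose, 3 fell and 4 did not pass. Hoxd8, a central gene of the trunk, had the largest change of any Hox gene. Its probe read 7.86 and 7.86 in controls and 6.37 and 6.30 in overexpression samples. The control values thus lay near the median of all probes and the overexpression values below the lower quartile. The difference was -1.53 ± 0.10 (log2, SE), a 2.88-fold fall (limma, adjusted p = 0.00339). Because overexpression values sit at the floor of the scale, the fold may be understated. In RNA of whole mandibles, fewer cells with Hoxd8 transcript and less transcript per cell cannot be told apart.

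Hoxd1, an anterior gene, and Hoxd4, a gene of group 4, also fell. Hoxd1 read 6.91 and 7.05 in controls and 6.26 and 6.28 in overexpression samples, a difference of -0.71 ± 0.11 (log2, SE; limma, adjusted p = 0.0178). Hoxd4 read 7.17 and 7.14 in controls and 6.75 and 6.63 in overexpression samples, a difference of -0.47 ± 0.11 (limma, adjusted p = 0.0433). Neither gene overlapped between groups, and both ended below the lower quartile. The mean of Hoxd1 over the 4 arrays also lay there, so it was not tested once probes below the lower quartile were left out. The call of Hoxd4 was lost when 50 was added to the linear values before the log (adjusted p = 0.0531).

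Hoxd3 went the other way, although it is the neighbour of Hoxd4 and the RefSeq spans of these genes overlap. It read 8.91 and 8.45 in controls and 9.54 and 9.42 in overexpression samples, a rise of 0.80 ± 0.17 (log2, SE; limma, adjusted p = 0.0386). Its 2 control arrays differed by more than those of any other called Hox gene, and the difference was 1.03 without control replicate 1 and 0.57 without control replicate 2. Hoxd12, a posterior gene known from the limb, read 8.85 and 8.94 in controls and 9.41 and 9.56 in overexpression samples (difference 0.59 ± 0.11; limma, adjusted p = 0.0289). Both genes lay above the median of all probes on all 4 arrays. Which part of a transcript each probe reads is not known, so reads of overlapping transcripts cannot be separated.

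The remaining Hoxd genes did not pass. Hoxd10 read 7.02 and 7.33 in controls and 8.16 and 7.42 in overexpression samples, so that 1 overexpression array made most of its difference of 0.62 (limma, adjusted p = 0.168). Hoxd9 and Hoxd13 had differences of -0.23 and -0.17, with no overlap between groups. The brightest probe of Hoxd11 gave -0.05. Counting uncalled values too, 2 of 8 pairs of neighbouring measured Hoxd genes shared a sign, against 18 of 33 pairs over all 4 clusters, and this difference was not tested.

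The Hoxd genes that fell and the 1 anterior Hoxd gene that rose are shown by their promoter windows, to set side by side genes of 1 cluster that moved in opposite directions. Each window runs from 250 bases before to 50 bases after the annotated start, is taken from RefSeq on GRCm38.p6 and reads 5′ to 3′. Capitals mark matches to 4 motifs, searched on both strands: TGATNNAT (Hox with Pbx), TGACAG (Meis), GGCGCC (a GC-rich element bound by BMP Smads) and AGGTCA (a half-site of retinoid and other nuclear receptors).
Hoxd8 promoter, chr2:74704365-74704664, + strand: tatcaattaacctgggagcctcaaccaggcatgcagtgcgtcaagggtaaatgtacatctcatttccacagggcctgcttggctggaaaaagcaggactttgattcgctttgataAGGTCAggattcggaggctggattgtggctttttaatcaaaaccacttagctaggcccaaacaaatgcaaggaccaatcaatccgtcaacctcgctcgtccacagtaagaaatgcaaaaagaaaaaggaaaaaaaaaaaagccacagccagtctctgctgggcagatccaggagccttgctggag
Hoxd4 promoter, chr2:74721728-74722027, + strand: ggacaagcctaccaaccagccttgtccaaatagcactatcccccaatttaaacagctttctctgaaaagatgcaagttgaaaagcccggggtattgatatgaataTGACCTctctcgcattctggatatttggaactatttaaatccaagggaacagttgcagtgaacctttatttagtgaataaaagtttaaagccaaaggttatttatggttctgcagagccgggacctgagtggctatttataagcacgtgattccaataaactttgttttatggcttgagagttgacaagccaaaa
Hoxd1 promoter, chr2:74762730-74763029, + strand: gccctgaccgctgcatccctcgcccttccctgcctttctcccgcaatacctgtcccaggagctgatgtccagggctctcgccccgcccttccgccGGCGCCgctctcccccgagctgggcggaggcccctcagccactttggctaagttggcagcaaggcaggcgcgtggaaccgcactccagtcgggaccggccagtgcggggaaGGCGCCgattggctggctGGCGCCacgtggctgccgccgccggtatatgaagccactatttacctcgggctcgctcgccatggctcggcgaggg
Hoxd3 promoter, chr2:74711743-74712042, + strand: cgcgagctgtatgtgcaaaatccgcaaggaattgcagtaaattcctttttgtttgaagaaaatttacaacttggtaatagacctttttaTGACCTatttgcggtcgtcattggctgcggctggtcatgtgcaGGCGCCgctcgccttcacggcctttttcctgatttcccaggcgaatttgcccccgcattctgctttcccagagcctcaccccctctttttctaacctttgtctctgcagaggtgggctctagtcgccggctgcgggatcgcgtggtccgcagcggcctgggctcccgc
In the Hoxd8 window, AGGTCA stood at bases 116 to 121, counted from the 5′ end. The same motif lay, in the reverse orientation, at bases 106 to 111 of Hoxd4 and 90 to 95 of Hoxd3. Hoxd1 held GGCGCC at 3 places (first bases 96, 207 and 225) and Hoxd3 at 1 place (first base 133). No Hox with Pbx or Meis match was found in these 4 windows. Thus AGGTCA and GGCGCC each occurred both with genes that fell and with Hoxd3, which rose. The window of Hoxd12, the other Hoxd gene that rose, held 0 matches to the 4 motifs. The table held 24 windows for 22 Hox genes. Of these, 29.2% held AGGTCA against 16.3% of all 32851 windows, 20.8% against 11.9% held GGCGCC, 16.7% against 8.85% held TGATNNAT and 8.33% against 19.2% held TGACAG. Hox windows had a median GC content of 57.7%, against 52.7% of all windows, and the part of base composition in these shares was not tested. A match is a stretch of letters and not a measured binding site.

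The Hoxb cluster, on chromosome 11, held the other genes that rose. Of its 10 measured genes, 2 rose, 0 fell and 8 did not pass. The share called, 20%, lay near the 16.9% of all named genes. Hoxb7, a central gene, read 8.60 and 8.85 in controls and 9.39 and 9.41 in overexpression samples, a rise of 0.68 ± 0.12 (log2, SE; limma, adjusted p = 0.0270). Its neighbour Hoxb6 read 6.22 and 6.17 in controls and 6.82 and 6.65 in overexpression samples, a rise of 0.54 ± 0.11 (limma, adjusted p = 0.0355). The groups of both genes were separate. Hoxb6 lay near or below the lower quartile on every array, its call was lost with 50 added to the linear values (difference 0.35, adjusted p = 0.0535), and it was not tested once probes below the lower quartile were left out.

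Hoxb1, a hindbrain gene of segment identity, read 8.20 and 8.85 in controls and 9.21 and 9.11 in overexpression samples. Both overexpression values lay above both controls, but the controls were far apart and the difference of 0.64 did not pass (limma, adjusted p = 0.110). Hoxb2, which acts with Hoxa2 in the hindbrain and second arch, had a difference of -0.07 with overlapping groups (8.27 and 8.34 against 8.03 and 8.44). Hoxb5 read 7.66 and 7.82 in controls and 8.18 and 7.92 in overexpression samples (difference 0.31, adjusted p = 0.178). Hoxb9 and Hoxb13 had differences of 0.41 and 0.36, while Hoxb4 and Hoxb8 had -0.09 and 0.04. Hoxb3, a gene of the posterior arches, had the most negative value of the cluster, -0.31 at its brightest probe.

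The Hoxa cluster, on chromosome 6, had a single call among 10 measured genes (10%, against 16.9% of all named genes). Hoxa3, which patterns the third arch and its thymus and parathyroid derivatives, fell from 7.84 and 7.98 in controls to 7.14 and 7.34 in overexpression samples. The groups did not overlap, and the difference was -0.67 ± 0.12 (log2, SE; limma, adjusted p = 0.0269). The RefSeq span of Hoxa3 overlaps those of Hoxa4, Hoxa5 and Hoxa6, whose differences were 0.28, 0.20 and -0.02 and did not pass. Hoxa2, the selector gene of the second arch, read 7.24 and 7.42 in controls and 7.62 and 7.59 in overexpression samples. Its difference was 0.28 at this probe (adjusted p = 0.160) and 0.44 at its other probe (adjusted p = 0.0598), so both probes were higher in all overexpression samples without passing. Paralogs within group 3 therefore had opposite calls, lower for Hoxa3 and higher for Hoxd3. This difference between paralogs was not tested.

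The Hoxc cluster, on chromosome 15, held 2 falls among 8 measured genes, of which 1 was not settled. The share called was 25%, against 16.9% of all named genes. Hoxc4 read 9.85 and 10.10 in controls and 9.30 and 9.50 in overexpression samples, a difference of -0.58 ± 0.14 (log2, SE; limma, adjusted p = 0.0484). Its second probe read 7.86 and 7.88 in controls and 7.19 and 7.23 in overexpression samples, a difference of -0.66 ± 0.10 (adjusted p = 0.0178). Hoxc4 was thus the only Hox gene whose fall was called at 2 probes. Its paralog Hoxd4 fell as well, while Hoxa4 and Hoxb4 of the same group had differences of 0.28 and -0.09 and did not pass.

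Hoxc8 gave opposite calls at its 2 probes. The brightest probe read 8.46 and 8.62 in controls and 7.90 and 8.0 in overexpression samples, a difference of -0.59 (limma, adjusted p = 0.0299). The second read 6.34 and 6.65 in controls and 7.06 and 7.13 in overexpression samples, a difference of 0.60 (adjusted p = 0.0438). The mean of both probes had a difference of 0.005. Such opposite calls were found for 11 of 3566 genes with more than 1 probe (0.308%), and the direction of Hoxc8 is therefore not settled by these data. Hoxc12 read 12 and 11.94 in controls and 11.98 and 12.11 in overexpression samples, so a bright probe of a posterior gene showed a difference of 0.08 with overlapping groups. Hoxc13 had the highest difference of the cluster, 0.26 (adjusted p = 0.149).

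**Figure D3:**
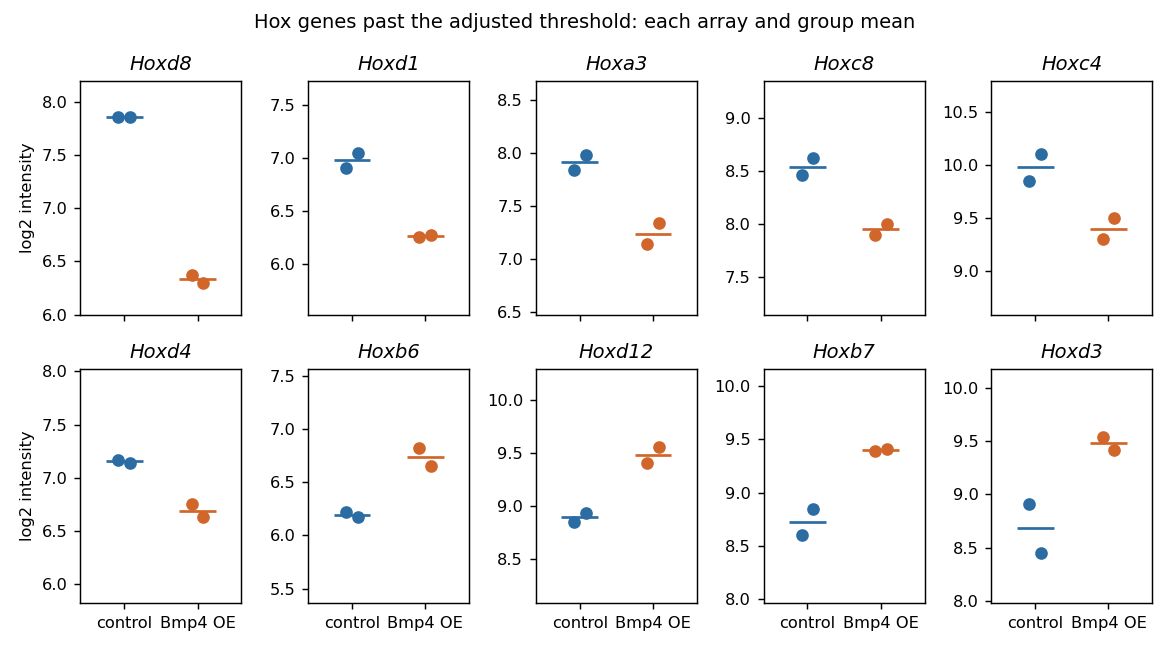
Log2 intensity on each of the 2 control (blue) and 2 Bmp4 overexpression (orange) arrays for the 10 Hox genes past the adjusted threshold, with group means as bars. Each panel spans the same range of 2.2 log2 units around its own centre, and the groups are separate in every panel.

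Among the 8 Hox genes with more than 1 probe, agreement was partial. Besides Hoxc4 and Hoxc8, Hoxd11 had a second probe that fell, from 7.49 and 7.72 to 7.08 and 7.08 (difference -0.53; limma, adjusted p = 0.0442), while its brightest probe did not pass. In all, 4 of the 8 (Hoxa7, Hoxb3, Hoxb13 and Hoxc8) had differences of opposite sign at their 2 probes, against 36.8% of all genes with several probes. For Hoxa7 these were 0.13 and -0.07, for Hoxb3 -0.31 and 0.16, and for Hoxb13 0.36 and -0.15. The 3 probes of Hoxa9 gave 0.37, 0.64 and 0.03, and none passed. The other calls, Hoxa3, Hoxb6, Hoxb7, Hoxd1, Hoxd3, Hoxd4, Hoxd8 and Hoxd12, each rest on 1 probe.

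**Figure D4:**
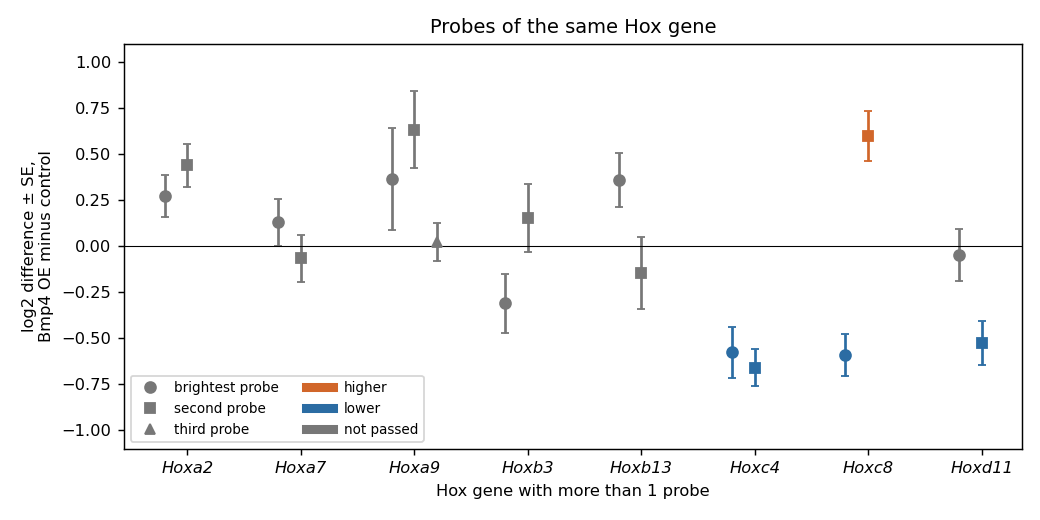
Log2 difference with its standard error for every probe of the 8 Hox genes with more than 1 probe, by brightness rank (symbol) and call (colour). Both Hoxc4 probes are lower, and the Hoxc8 probes lie at -0.59 and 0.60.

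By position within the clusters, calls lay mainly in the anterior and central genes. Of 7 measured genes of groups 1 to 3, 1 rose and 2 fell, and of 15 genes of groups 4 to 8, 2 rose and 4 fell. Of 15 posterior genes of groups 9 to 13, Hoxd12 rose and 0 fell at the brightest probe. The shares called were 42.9%, 40% and 6.67%, against 16.9% of all named genes, and the difference between them was not tested. All 3 classes held dim genes, with 57.1%, 73.3% and 73.3% of them below the median of all probes in both groups. Group 8 held both the strongest fall and a gene at the floor: Hoxb8 read between 5.89 and 6.07 on the 4 arrays. Of the 2 measured members of group 7, Hoxb7 rose and Hoxa7 did not pass, with overlapping groups. Groups 2, 5, 9, 10, 11 and 13 had 0 calls at the brightest probe (limma), and 1 of their 18 genes, Hoxc13, had an unadjusted p under 0.05. Of all 16637 named genes, 6063 had such a p. These groups were picked for their lack of calls, so the low count follows in part from the choice.

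Other transcripts within and beside the clusters were read as well. Inside the clusters the RefSeq table lists 31 further genes, of which 4 had a probe, and none passed. This positional choice was made with the Hox results known. Hoxaas2, an antisense RNA of the Hoxa cluster, read 6.88 and 6.72 in controls and 6.42 and 6.35 in overexpression samples, a difference of -0.42 (limma, adjusted p = 0.0633). Haglr and Hoxd3os1, non-coding RNAs of the Hoxd cluster, had differences of 0.26 and 0. Of 17 measured protein genes within or around the clusters, 1 rose, 2 fell and 14 did not pass, and the share called was 17.6% against 16.9% of all named genes. Evx2, a homeobox gene next to Hoxd13, fell from 8.31 and 8.50 to 7.88 and 7.65 (difference -0.64, adjusted p = 0.0355), and its other probe did not pass. Mtx2, a mitochondrial protein gene on the Hoxd1 side, rose by 0.52 on the log2 scale, and Jazf1 near Hoxa had a difference of -0.82. The other probe of Jazf1, below the lower quartile in both groups, gave -0.1 and did not pass. The 6 ParaHox genes, the sister cluster of Hox, had 0 calls in limma, with differences between -0.37 and 0.66. An unadjusted p under 0.05 was found for 2 of them, and for 6063 of all 16637 named genes.

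The TALE partners of Hox proteins that passed were all higher. There were 3 rises and 0 falls among 8 measured genes (37.5% higher, against 7.39% of all named genes), and the median difference was 0.20. Of these 8 genes, 6 had a group mean at or above the probe median. Of named genes whose probe mean reached that median, 22.1% were called in either direction. Meis2 read 11.21 and 11.23 in controls and 12.15 and 12.34 in overexpression samples (difference 1.03; limma, adjusted p = 0.00950). Its other probe gave 0.40 and did not pass. Meis1 and Pbx3 rose by 0.58 and 0.50 on the log2 scale, and Pbx2 had -0.46 and did not pass.

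Among 11 measured genes that drive Hox induction or make, degrade or receive retinoic acid, 0 rose, 2 fell and 9 did not pass. The share called, 18.2%, lay near the 16.9% of all named genes. Both falls were enzymes of retinoic acid: Aldh1a2, which makes it, went from 9.90 and 10.03 to 8.05 and 7.82, and Cyp26a1, which degrades it, from 9.08 and 8.92 to 7.03 and 6.91. Each had a difference of -2.03. The falls are thus of a maker and a remover of retinoic acid, and its level was not measured. The receptor gene Rarb, itself a retinoid target, gave 0.87 at its brightest probe without passing and -1.09 at its other probe, which passed. Cdx1, Cdx2 and Cdx4, trunk regulators of central Hox genes, were under the lower quartile in both groups, as was the hindbrain gene Egr2.

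Among chromatin regulators of the clusters more genes fell than rose. Of 21 measured Polycomb and trithorax genes, 1 rose, 5 fell and 15 did not pass, which is 23.8% lower against 9.54% of all named genes. These genes were mostly bright, 18 of 21 with a group mean at or above the probe median. In either direction 28.6% were called, against 22.1% of named genes whose probe mean reached that median. Counting uncalled values too, 10 differences were positive and 11 negative. Cbx2 and Cbx7, readers of the repressive histone mark, had differences of -0.80 and -0.65, and Eed, a core subunit of the enzyme complex that writes it, had -0.64. On the activating side Men1 and Rbbp5, subunits of histone methyltransferase complexes, fell by 0.66 and 0.45 on the log2 scale. Kdm6a, a demethylase that removes the repressive mark, rose by 0.81. Ezh2, the catalytic subunit, had -0.30 and did not pass.

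Genes that Hoxa2 is known to bind or restrain in the second arch were also read, although Hoxa2 itself did not pass. Of 6 measured genes 0 rose, 4 fell and 2 did not pass (66.7% lower, against 9.54% of all named genes), with a median difference of -0.69. Of these 6 genes, 5 had a group mean at or above the probe median. Of named genes whose probe mean reached that median, 22.1% were called in either direction. Pitx1 had a difference of -1.28, Six2 one of -1.02, Wnt5a one of -0.75 and Meox1 one of -0.63. Alx4 and Lmo1 had 0.06 and 0.11, and Lmo1 lay below the lower quartile. Pitx1 and Alx4 are also in the list of mandible genes. The list does not set the direction in which Hoxa2 acts on each gene, so the falls are not read as a change in its activity.

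**Figure D5:**
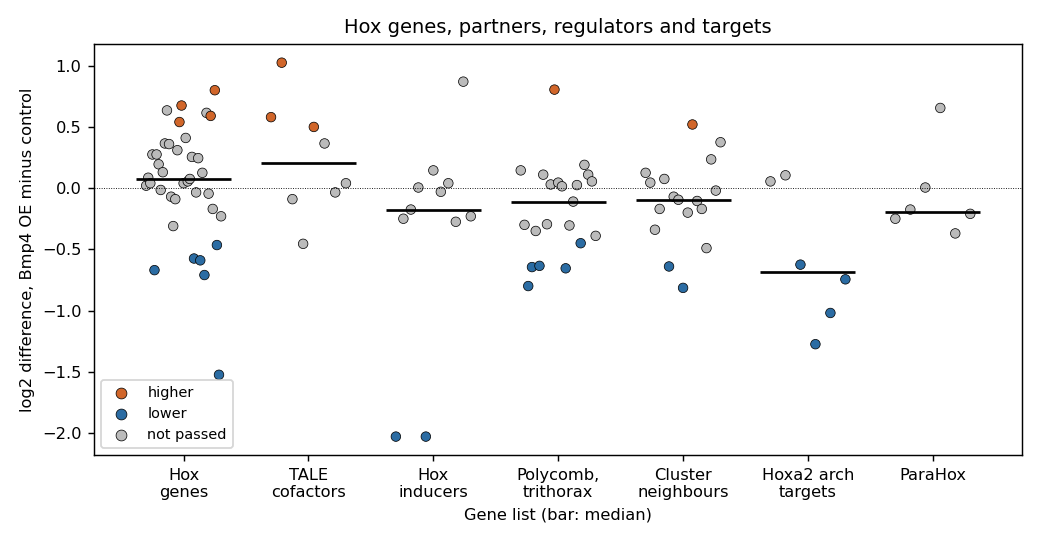
Log2 difference of each measured gene of the Hox family and of 6 related lists, coloured by call, with the list median as a bar. The Hox genes lie on both sides of 0, the 3 called TALE genes are all higher, and the 4 called Hoxa2 target genes are all lower.

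Markers of Hox-expressing tissues next to the mandible, and of other cell types within it, are given here beside the Hox values. Of 10 measured neural tube and hindbrain genes, 0 rose and 2 fell (Gbx2 and Sox2). Their summed intensity was 12.19 to 12.23 in controls and 11.81 to 11.91 in overexpression samples (log2 of the sum), and Egr2, Lhx5 and Sox1 were under the lower quartile in both groups. The lower sum of this list is mainly the fall of Sox2 and Gbx2, and the other 8 genes did not pass. Of 12 muscle precursor genes 1 rose (Actc1) and 1 fell (Pax3), with sums of 12.88 to 12.96 against 13.04 to 13.12, and Pax7, Tcf21 and Tnnt2 below the lower quartile. Of 8 limb bud genes 2 rose and 3 fell, with sums of 12.79 to 12.86 against 11.61 to 11.71. Shox2, which the mandible also expresses, fell in this list from 12.32 and 12.16 to 9.41 and 9.23, a difference of -2.92. It made up most of the control sums, so the lower limb bud sum is mainly the fall of this gene. Of 6 pharyngeal endoderm genes 2 rose (Foxa1 and Foxa2) and 1 fell (Pax1), with sums of 10.93 to 10.95 against 10.92 to 11.04. Of 9 sensory neuron and nerve genes Isl1 rose and 0 fell, and the sums were 12.16 to 12.20 against 13.22 to 13.23, with Foxd3 and Pou4f1 under the lower quartile. Isl1 had a difference of 2.98 in this list, from 9.35 and 9.30 to 12.29 and 12.32, and the other 8 genes did not pass. The higher sum of this list is mainly the rise of Isl1. Of endothelial genes 1 of 7 rose, of blood genes 2 of 6 fell, and of epithelial genes 4 of 8 rose and 2 fell. Against the 16.9% called among all named genes, the shares were 11.1% for sensory neurons and nerve, 14.3% for endothelium, 16.7% for muscle precursors, 20% for neural tube and hindbrain, 33.3% for blood, 50% for pharyngeal endoderm, 62.5% for limb bud and 75% for epithelium. All measured genes of the endothelium, limb bud and epithelium lists had a group mean at or above the probe median. Among named genes whose probe mean reached that median, 22.1% were called in either direction. The part of the listed tissues and cell types in the Hox differences was not tested.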

How the data were processed

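Total RNA of 4 samples of whole mandible was amplified, labelled with Cy5 and hybridised to 1-colour arrays, per the labels' protocols. The deposited values are log2 intensity per probe, and their sorted columns are identical, so the authors had quantile-normalised them. The scanner and the background correction are not stated in the sources used here. Quantile normalisation hides any shift of total RNA, and values near the floor are compressed. Of 29922 probes, 21020 had 1 symbol in the platform annotation and 8902 none. Of these, 17558 symbols were current, 3410 were updated through RefSeq synonyms (GRCm38.p6) and 52 were unmatched.

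All probes were fitted with limma 3.58.1 in R 4.3.3 (lmFit, eBayes without trend, two-sided), with Benjamini-Hochberg adjustment over all probes, and the fit was tested on simulated data. A permutation test of 2 against 2 arrays cannot go below p = 0.333. The number of arrays limits the precision. Replicate numbers did not pair the arrays (correlation of deviations -0.07). The members and gene lists were chosen with earlier results of these data known. Named genes were Bmp4, Hox genes that passed, had a group mean at or above the probe median, led their cluster in either direction or had probes of opposite sign, and up to 4 list members with the smallest p. Further genes are named as list context, after their values were seen. Alternatives were other scaling, an offset of 50, filters on dim probes, a variance trend, a replicate block, the study's threshold, other probes and leaving out each array.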

Additional observations from a re-analysis of the deposited data

How the results depend on the processing

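The 4 rises and 6 falls among Hox genes were the same genes with an intensity trend. Quantile normalisation and median centring left the values as they were, because the deposited arrays already shared 1 distribution, and so test nothing. With 50 added to the linear values, 3 rose and 5 fell. Without probes below the lower quartile, 26 Hox genes were tested, 3 rose and 5 fell, and the median Hox difference was 0.16. Without probes below the median, 10 were tested, 3 rose, 2 fell and the median was 0.22; in both cases fewer genes entered. With the mean of all probes of a gene, 4 rose and 5 fell, and with the second-brightest probe 5 rose and 6 fell. Only 8 of the 37 Hox genes had more than 1 probe, and of the called genes only Hoxc4 and Hoxc8. The other called genes kept their probe, so these counts could change little. Hoxc8 then had a difference of 0.005 with the mean of its probes, and one of 0.60, opposite to its main value, with the second-brightest probe. At the study's threshold 0 Hox genes were higher and 1 lower, of 364 probes higher and 422 lower.

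The replicate numbers are only shared names, and the fit with the replicate block had 1 residual degree of freedom. Under it 0 Hox genes and 0 of all probes were higher or lower in limma (lowest adjusted p = 0.0745). At an unadjusted p of 0.05 in limma, 4 Hox genes were higher and 6 lower, which is 10 of 37. Of all 29922 probes 8724 had such a p, a similar share. Without each array in turn, Hox genes higher, Hox genes lower, all probes higher and all probes lower each ranged from 0 to 0, and the median Hox difference from 0.06 to 0.10. The lowest adjusted p over all probes then lay between 0.138 and 0.191. Low signal limits part of the family: 12 of 37 overexpression means lay below the lower quartile, and background was not measured here.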
